A study of Mus musculus with 8 samples.

Results

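Kinesins are the motor proteins named Kif that walk along microtubules or take them apart, and their messenger RNA was followed here in the developing mouse hypothalamus with and without the transcription factor gene Foxd1. Members were every gene whose symbol is Kif followed by a number and at most 1 letter. This rule found 37 genes among the 22725 symbols that all 8 tables hold, and it leaves out motors named otherwise, such as Cenpe, Kifc1, Kifc2 and Kifc3. From their known roles, 11 were grouped as mitotic kinesins, 15 as transport kinesins, 6 as ciliary and centriolar kinesins and 5 as other kinesins.

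The series compares wild-type with Foxd1-mutant hypothalamus, to ask what the gene is needed for as anterior hypothalamic neurons mature. There was 1 wild-type and 1 mutant library at E12.0 and the same at E12.5, and 2 of each genotype at E17.5. The mutant animals are described as Foxd1-null, a loss in the whole embryo and not in a chosen cell type. The labels name no mouse strain. The libraries were made from RNA pooled over embryos, 8 Foxd1-null and 10 control embryos in the whole study, with no split by library, and the protocol text words the controls as either genotype although each control library is labelled wild-type. The protocol describes dissection at E12.5 and E17.5 only, so the E12.0 stage rests on the sample labels. Nothing says that libraries with the same label came from separate litters, so p-values measure only the spread between these libraries.

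Levels are the FPKM values (fragments per kilobase of transcript, scaled to the mapped fragments of the library) that the authors deposited, a scale per transcript length on which different genes can be compared. Foxd1 was 25.0 and 30.3 FPKM in the wild-type libraries at E12.0 and E12.5 and 2.77 and 2.497 in the mutant ones, and at E17.5 it was 3.90 and 1.96 against 0.396 and 0.230. The labelled genotypes and the Foxd1 values therefore ran the same way in every pair of libraries. Hypothalamic markers were present in each library, with none of 10 at 0. From the spacing of low values the E17.5 libraries hold about 30260000 to 43160000 fragments, whereas 31.0 to 38.9% of low values at E12 came within 0.1 of a whole fragment and the depth of those libraries is not known. The wild-type E12.0 library stands apart: 791 of 12519 genes lay at least 2-fold from the wild-type E12.5 library, against 82 between the E12.5 libraries of the 2 genotypes. Mutant replicate 2 at E17.5 stands apart too, with a summed level of 8 telencephalon markers of 82.1 FPKM against 29.8, 29.8 and 35.6 in the other E17.5 libraries.

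Kinesins bind microtubules through a motor domain that burns ATP, and their tails decide what they pull. In a dividing cell, mitotic kinesins build the spindle, line up chromosomes and finish cytokinesis, and their transcripts are made mainly in the G2 and M phases. In a neuron that has left the cycle, transport kinesins carry vesicles, mitochondria and receptors from the cell body towards the microtubule plus ends in axons and dendrites. A growing brain region that turns from dividing progenitors to neurons therefore holds both sets at once.

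Every mitotic kinesin was lower at E17.5 than at E12. All 11 had every E17.5 library at or below 0.5 times every E12 library, a pattern shown by 4.51% of the 12519 genes averaging 1 FPKM or more and by no other kinesin at that level. Over libraries, the median change of the 11 from E12 to E17.5 was -1.90 on the log2(FPKM + 1) scale, against 0.27 over all genes. The tables of the 2 ages were made separately, with 1 row per gene at E12 and 1 row per transcript at E17.5, so this comparison is a description and carries no test. Over the same libraries 7 of 8 progenitor markers, Sox2 and Nes among them, were lower at E17.5 in every library, and 7 of 10 neuron markers were higher, where 17.4% of all genes were lower and 45.4% higher. In whole tissue, fewer dividing cells and less RNA per cell cannot be told apart. The 11 counted without the wild-type E12.0 library, without both E12.0 libraries or without mutant replicate 2 at E17.5 remained 11 in each case.

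Among the motors that build the spindle, Kif11, the plus-end motor that pushes the spindle poles apart, was the most abundant mitotic kinesin at E12 by the mean of the 4 libraries. In what follows, wild-type libraries are set against mutant libraries, with E12.0 before E12.5 and replicate 1 before replicate 2. Kif11 was 22.7 and 25.1 against 29.1 and 27.98 FPKM at E12 and 4.75 and 4.34 against 4.13 and 6.48 FPKM at E17.5, so the E12 mean exceeded that of E17.5 5.25 times in wild type and 5.38 times in the mutant. The 4 early libraries lay far above the 4 late ones, and mutant replicate 2 was the highest of the late ones. Kif15, which helps to keep the spindle bipolar, was 16.4 and 14.3 against 18.0 and 16.9 FPKM at E12 and 2.55 and 2.34 against 2.67 and 3.53 FPKM at E17.5, a ratio of 6.28 times in wild type and 5.62 times in the mutant. Kif4, a chromosome-bound motor that also organises the central spindle, was 14.8 and 12.3 against 15.4 and 14.4 FPKM at E12 and 2.48 and 2.499 against 2.25 and 3.199 FPKM at E17.5. Kif4 was lowest in mutant replicate 1 and highest in mutant replicate 2 among the E17.5 libraries, so its genotypes overlapped there.

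The motors that move chromosomes or trim microtubule ends followed the same course. Kif22, a chromokinesin that pushes chromosome arms away from the poles, had the widest stage ratio of the mitotic kinesins in wild type. It was 28.5 and 21.1 against 25.2 and 24.1 FPKM at E12 and 3.95 and 3.79 against 4.28 and 4.51 FPKM at E17.5, a ratio of 6.40 times in wild type and 5.62 times in the mutant. Kif18a, which damps the swinging of chromosomes at the metaphase plate, was 9.06 and 8.64 against 9.68 and 9.69 FPKM at E12 and 1.54 and 1.53 against 1.81 and 2.83 FPKM at E17.5, a ratio of 5.77 times in wild type and 4.17 times in the mutant. The smaller mutant ratio of Kif18a goes with mutant replicate 2, whose value was the highest of the E17.5 libraries. Kif18b, which shortens astral microtubules, was 8.96 and 7.33 against 9.17 and 7.41 FPKM at E12 and 1.94 and 1.77 against 2.07 and 2.17 FPKM at E17.5. Kif2c, a depolymerase that corrects faulty attachments at centromeres, was 14.3 and 14.5 against 18.5 and 16.7 FPKM at E12 and 2.69 and 2.75 against 3.42 and 3.61 FPKM at E17.5. For Kif2c the mutant libraries lay above the wild-type libraries of the same age throughout.

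The motors of cytokinesis were also lower late, and Kif20a and Kif20b kept the largest share of their early level. Kif20a, which brings the chromosomal passenger complex to the central spindle, was 19.1 and 19.8 against 24.3 and 22.2 FPKM at E12 and 6.97 and 6.68 against 7.31 and 8.61 FPKM at E17.5, a ratio of 2.85 times in wild type and 2.92 times in the mutant. Kif20b, a midbody motor needed for abscission in cortical progenitors, was 6.39 and 5.74 against 6.45 and 6.02 FPKM at E12 and 1.91 and 1.83 against 2.20 and 2.82 FPKM at E17.5, a ratio of 3.24 times in wild type and 2.48 times in the mutant. These were the smallest stage ratios among the 11. Kif23, the motor of the centralspindlin complex, was 14.1 and 11.7 against 16.1 and 14.3 FPKM at E12 and 2.71 and 2.68 against 3.01 and 3.71 FPKM at E17.5. Kif14, which recruits citron kinase to the midbody, was the least abundant mitotic kinesin. It was 3.46 and 2.24 against 3.21 and 2.82 FPKM at E12 and 0.455 and 0.47 against 0.418 and 0.625 FPKM at E17.5, and at these low levels its genotypes overlapped at E17.5.

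**Figure D1:**
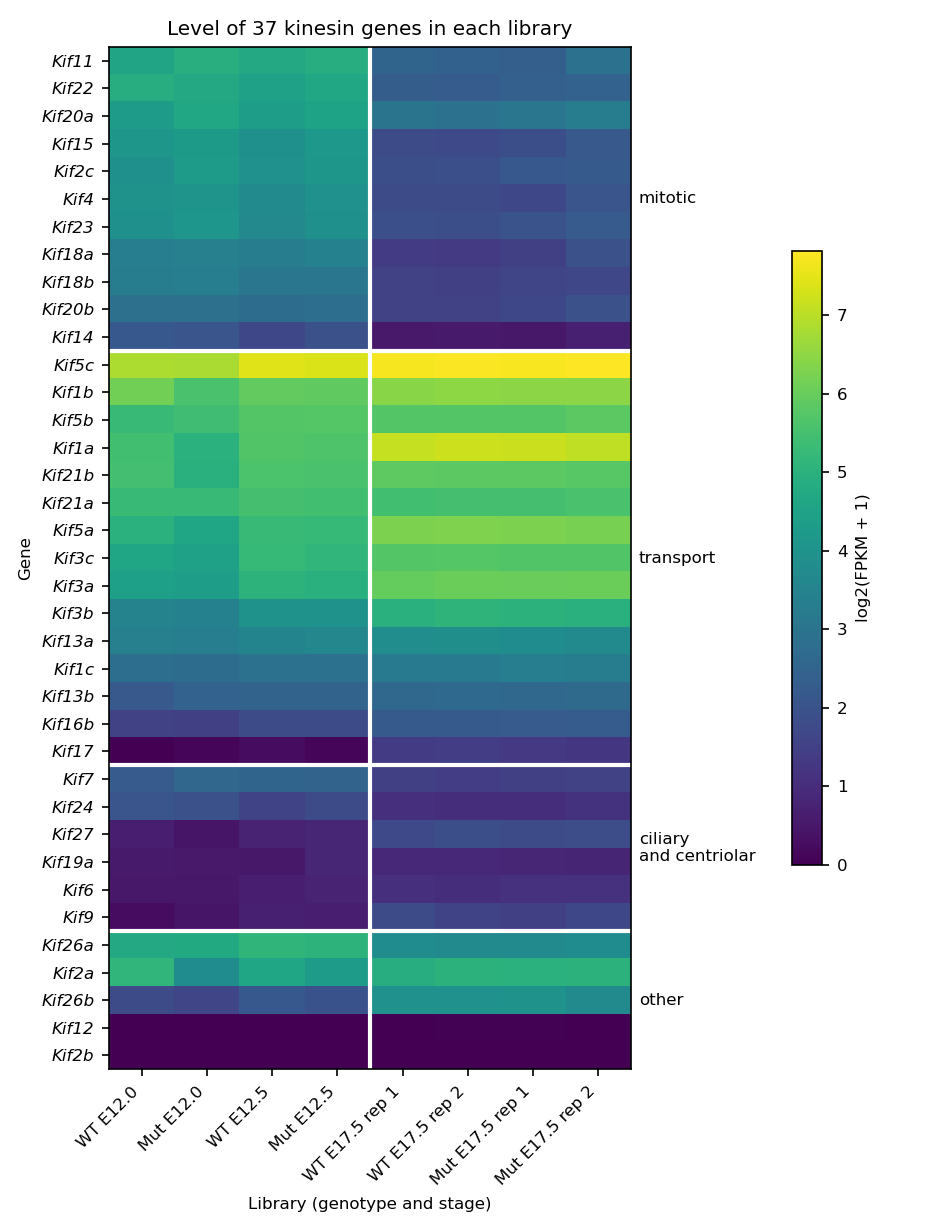
Level of each of the 37 kinesin genes (rows, grouped by role) in each of the 8 libraries (columns), as log2(FPKM + 1) by colour. The 11 mitotic kinesins are darker, that is lower, in the 4 E17.5 libraries, while Kif5c and Kif1a, at 207 to 224 and 134 to 147 FPKM there, are the brightest rows.

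Transport kinesins ran the other way. Of the 14 averaging 1 FPKM or more, 12 were higher in every E17.5 library than in every E12 library and none was lower, where 45.4% of all genes were higher and 17.4% lower. Their median change was 0.57 on the log2(FPKM + 1) scale, against the 0.27 of all genes. This count depends on the scale: with small RNA genes left out, which hold 14.7 to 24.5% of the FPKM at E12 and 9.87 to 14.7% at E17.5, it was 8 of 14, where 43.1% of all genes were higher, with medians of 0.44 for transport kinesins and 0.13 for all genes. On that scale all 11 mitotic kinesins were still lower in every E17.5 library, with a median of -2.03.

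The conventional kinesins carry mitochondria, vesicles and neurofilament proteins, and in neurons their heavy chain comes from Kif5a, Kif5b and Kif5c. Kif5c was the most abundant kinesin at both ages, at 113 and 172 against 112 and 165 FPKM at E12 and 207 and 217 against 214 and 224 FPKM at E17.5. Kif5a, the form confined to neurons, was 30.7 and 37.4 against 23.2 and 36.8 FPKM at E12 and 75.5 and 78.2 against 76.5 and 73.2 FPKM at E17.5, a gain of 2.26 times in wild type and 2.496 times in the mutant. Kif5b, the form that most cell types use, was 37.5 and 51.2 against 41.6 and 52.6 FPKM at E12 and 51.9 and 51.2 against 51.5 and 56.4 FPKM at E17.5. The E12.5 values of Kif5b reached into the E17.5 range, so it was 1 of the 2 transport kinesins without a clean split by age.

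The axonal vesicle motors of the Kif1 family differed in how much more of them there was late. Kif1a, which carries synaptic vesicle precursors, had the largest gain of the transport kinesins above 1 FPKM. It was 42.2 and 50.9 against 30.6 and 49.9 FPKM at E12 and 139.9 and 147 against 143 and 134 FPKM at E17.5, a gain of 3.08 times in wild type and 3.45 times in the mutant, and its rank by level among the 37 was 2 at E17.5 and 4 at E12. Kif1b, whose isoforms carry mitochondria or synaptic vesicle precursors, was 70.3 and 60.2 against 46.1 and 59.0 FPKM at E12 and 83.9 and 88.0 against 87.3 and 87.3 FPKM at E17.5. Kif1c, a motor of dense core vesicles and messenger RNA, was 6.05 and 6.77 against 5.85 and 6.59 FPKM at E12 and 8.38 and 8.26 against 9.23 and 8.82 FPKM at E17.5. The mutant E12.0 library had the lowest value of each of these 3 genes.

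The heterotrimeric motor joins Kif3a with Kif3b or Kif3c and works in axons as well as in the cilium. Kif3a was 20.1 and 31.9 against 19.6 and 30.3 FPKM at E12 and 61.4 and 65.0 against 64.5 and 65.5 FPKM at E17.5, a gain of 2.43 times in wild type and 2.60 times in the mutant. Kif3b was 10.3 and 14.9 against 9.77 and 14.98 FPKM at E12 and 30.4 and 32.5 against 31.2 and 30.3 FPKM at E17.5 and Kif3c was 23.2 and 36.2 against 21.2 and 34.3 FPKM at E12 and 52.0 and 52.8 against 51.1 and 51.0 FPKM at E17.5. All 3 genes were lowest at E12.0, higher at E12.5 and highest at E17.5, in each genotype. Over all genes the median change from E12.0 to E12.5 was also upward. It was 0.37 in wild type and 0.35 in the mutant on the log2(FPKM + 1) scale. Kif3a and Kif3b kept similar stage gains, with Kif3b at 2.499 times in wild type and 2.48 times in the mutant, while Kif3c gained 1.76 times in wild type and 1.84 times in the mutant.

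Endosome and receptor motors were less abundant. Kif13a, which moves recycling endosomes, was 9.54 and 10.6 against 9.21 and 11.3 FPKM at E12 and 13.2 and 13.8 against 12.9 and 12.3 FPKM at E17.5. Kif13b, which carries phosphoinositide-bound vesicles, was 3.56 and 4.64 against 4.46 and 4.60 FPKM at E12 and 5.17 and 5.36 against 5.24 and 5.47 FPKM at E17.5. Kif16b, a motor of early endosomes, was 1.88 and 2.47 against 1.79 and 2.54 FPKM at E12 and 3.59 and 3.59 against 3.76 and 3.87 FPKM at E17.5. These 3 genes were 1.18 to 1.76 times as high at E17.5 as at E12. Kif17, which carries NMDA receptor vesicles into dendrites, was 0 and 0.202 against 0.0812 and 0.0844 FPKM at E12 and 1.56 and 1.68 against 1.47 and 1.35 FPKM at E17.5, so it was at or near 0 at E12 and above 1 FPKM in every E17.5 library. With a mean under 1 FPKM over the ages it is not among the 14.

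Kif21a and Kif21b slow microtubule growth as well as moving along it. Kif21a was 38.6 and 44.4 against 37.6 and 42.3 FPKM at E12 and 43.0 and 44.8 against 44.2 and 46.3 FPKM at E17.5, with the least change by age of the transport kinesins, and was the other one without a clean split. Kif21b, found mainly in dendrites, was 43.1 and 47.2 against 30.2 and 46.9 FPKM at E12 and 57.6 and 56.3 against 56.3 and 54.4 FPKM at E17.5. The mutant E12.0 library was again the lowest for Kif21b.

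**Figure D2:**
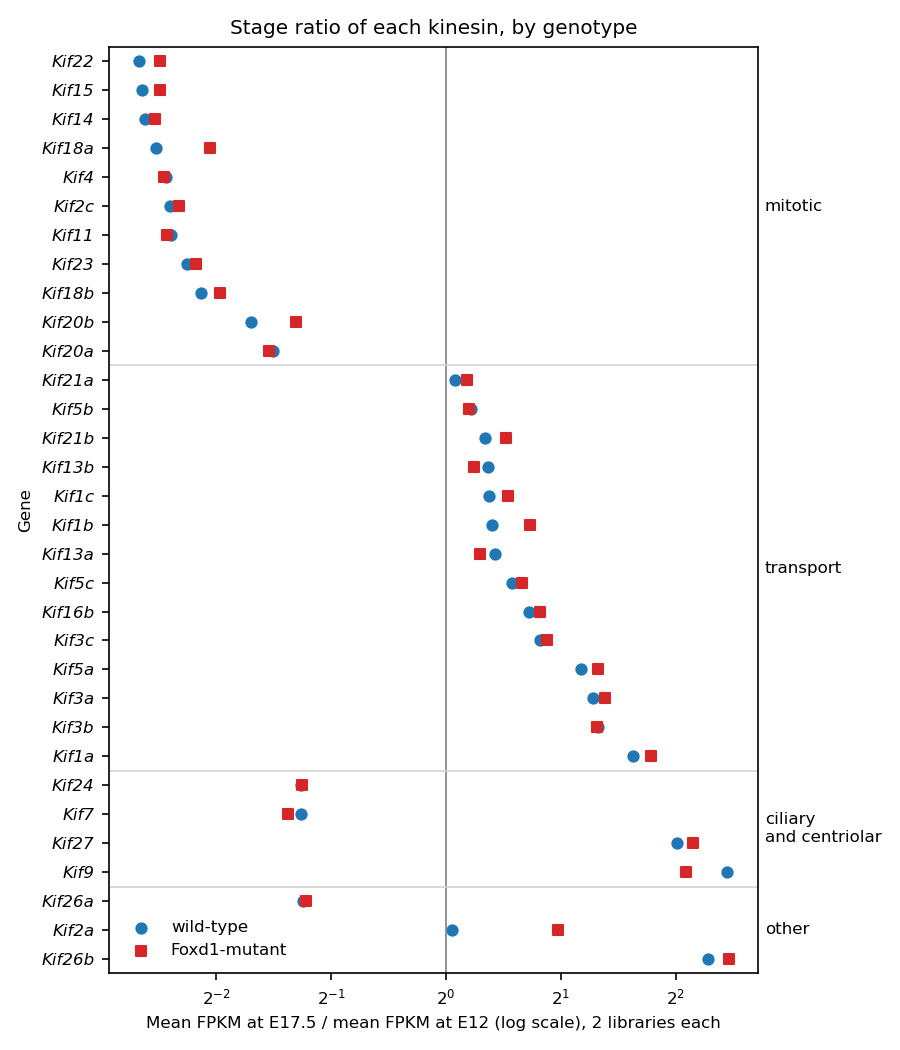
Mean FPKM at E17.5 divided by the mean at E12 (horizontal, log scale) for the 32 kinesins averaging 1 FPKM or more, for wild type (circles) and Foxd1-mutant (squares), each mean over 2 libraries. Mitotic kinesins lie left of 1, from Kif22 at 0.156 to Kif20a at 0.351 in wild type, and transport kinesins lie right of it, up to Kif1a at 3.08.

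Summed over the group, mitotic kinesins were 158 and 143 FPKM in the wild-type and 175 and 163 in the mutant libraries at E12.0 and E12.5. At E17.5 the sums were 32.0 and 30.7 against 33.6 and 42.1 FPKM. Transport kinesins summed to 451 and 571 against 393 and 557 FPKM at E12, and to 835 and 865 against 853 and 854 at E17.5. For each 100 FPKM of transport kinesins there were thus 35.0 and 25.0 FPKM of mitotic kinesins in wild type at E12.0 and E12.5 and 3.83 and 3.55 at E17.5. The mutant libraries gave 44.5 and 29.2 at E12 and 3.94 and 4.93 at E17.5, so at each age every mutant library lay above every wild-type library of that stage. In wild type, mitotic kinesins made up 23.2% of the FPKM of all 37 kinesins at E12.0 and 18.2% at E12.5, with 1 library each. At E17.5 they made up 3.31 ± 0.173% (SD, n = 2). Transport kinesins made up 66.4% at E12.0, 72.9% at E12.5 and 89.7 ± 0.155% (SD, n = 2) at E17.5.

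**Figure D3:**
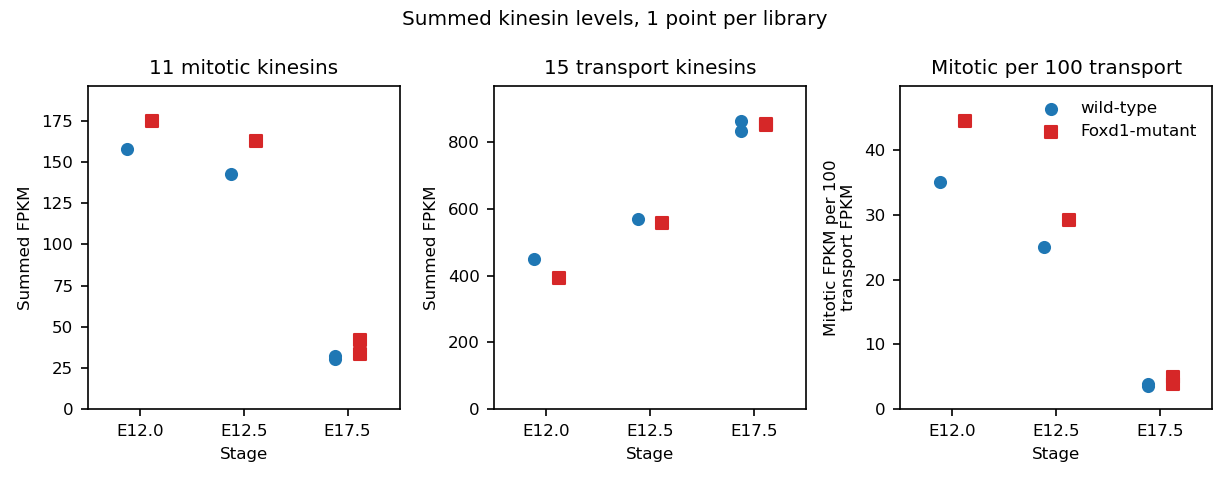
Summed FPKM of the 11 mitotic kinesins (left), of the 15 transport kinesins (middle) and mitotic FPKM per 100 transport FPKM (right) at each stage, with 1 point per library, wild type as circles and Foxd1-mutant as squares. Mitotic sums go from 143 to 175 at E12 to 30.7 to 42.1 at E17.5 while transport sums go from 393 to 571 to 835 to 865.

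The remaining kinesins split by age. Of the ciliary and centriolar kinesins, Kif7, which tunes Hedgehog signalling at the tip of the primary cilium, went from 3.71 to 4.95 FPKM over the E12 libraries to 1.70 to 1.90 at E17.5. Kif24, a centriolar motor that restrains cilium growth, went from 2.04 to 3.14 to 1.013 to 1.21 FPKM. The motors linked to motile cilia were higher late: Kif27 went from 0.355 to 0.774 to 2.31 to 2.70 FPKM, and Kif6 from 0.412 to 0.668 to 1.03 to 1.18. Kif9, also of motile cilia, was 0.207 and 0.624 against 0.357 and 0.59 FPKM at E12 and 2.47 and 2.06 against 1.77 and 2.26 FPKM at E17.5, with every E17.5 library at least 2 times every E12 library. Kif19a, which limits the length of motile cilia, stayed under 1 FPKM in all 8 libraries.

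Among the other kinesins, Kif26b, an atypical motor of cell adhesion, was higher late, at 2.12 to 3.44 FPKM over the E12 libraries and 12.4 to 15.2 at E17.5. Its relative Kif26a was lower late, at 25.2 to 33.7 and then 11.9 to 12.9 FPKM. At least 2-fold higher in every E17.5 library than in every E12 library were 5 of the 32 kinesins averaging 1 FPKM or more, Kif1a, Kif3b, Kif9, Kif27 and Kif26b, where 14.2% of all genes were. Kif17, below that level, also met this rule. Kif2a, a depolymerase that prunes axon branches and also acts at spindle poles, was 34.2 and 23.6 against 13.0 and 18.6 FPKM at E12 and 28.2 and 31.7 against 30.7 and 31.4 FPKM at E17.5, and its early libraries spanned the late range. Kif12 was listed at 0 in every E12 library and at most 0.033 FPKM at E17.5, and Kif2b was listed at 0 in all but mutant replicate 2 at E17.5, where it was 0.016 FPKM.

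The start regions of the genes that move together are shown because the mitotic members share a short word there that few transport members hold. RefSeq windows of 300 bases on the GRCm38.p6 build, with 250 bases before the transcript start and 50 from it on, were at hand for 31 of the 37 kinesins and not for Kif5a, Kif5b, Kif13b, Kif19a, Kif20a and Kif21b. TTTGAA, or TTCAAA on the other strand, is the core of the cell cycle homology region, a promoter element of genes expressed in G2 and M, and CCAAT, or ATTGG on the other strand, is the box bound by NF-Y. TTTGAA stood in the window of 9 of 10 mitotic kinesins and of 1 of 11 transport kinesins, Kif1a, where 17.9% of 32851 windows of all genes hold it. Within 30 bases of the start it stood in 7 mitotic and 0 transport kinesins, where 2.90% of windows do. CCAAT stood in 6 of the 10 and 3 of the 11, with 37.4% of all windows. The 7 mitotic members with TTTGAA near the start and, for contrast, Kif3a and Kif5c are printed from 90 bases before the start to 30 from it on, 5′ to 3′ along the gene, with TTTGAA and CCAAT on either strand in capitals.
Kif4 (chrX:100625975-100626094, plus strand): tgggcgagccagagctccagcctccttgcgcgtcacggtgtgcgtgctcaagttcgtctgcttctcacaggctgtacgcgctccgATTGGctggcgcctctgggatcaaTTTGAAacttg
Kif11 (chr19:37376292-37376411, plus strand): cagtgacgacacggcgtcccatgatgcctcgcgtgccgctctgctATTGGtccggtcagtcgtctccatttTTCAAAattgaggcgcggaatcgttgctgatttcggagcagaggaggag
Kif15 (chr9:122950991-122951110, plus strand): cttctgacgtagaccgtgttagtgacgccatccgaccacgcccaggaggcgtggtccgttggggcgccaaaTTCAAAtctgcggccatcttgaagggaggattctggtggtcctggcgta
Kif18b (chr11:102925095-102925214, minus strand): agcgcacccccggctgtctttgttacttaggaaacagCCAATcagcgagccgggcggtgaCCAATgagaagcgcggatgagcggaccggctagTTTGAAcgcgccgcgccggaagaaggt
Kif20b (chr19:34922268-34922387, plus strand): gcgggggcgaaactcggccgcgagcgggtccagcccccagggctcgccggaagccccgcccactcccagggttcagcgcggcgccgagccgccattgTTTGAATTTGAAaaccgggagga
Kif22 (chr7:127042391-127042510, minus strand): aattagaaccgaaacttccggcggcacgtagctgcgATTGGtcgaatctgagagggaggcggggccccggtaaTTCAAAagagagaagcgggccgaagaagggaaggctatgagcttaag
Kif23 (chr9:61946770-61946889, minus strand): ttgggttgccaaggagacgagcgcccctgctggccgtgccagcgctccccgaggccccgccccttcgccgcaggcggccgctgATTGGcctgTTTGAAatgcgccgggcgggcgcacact
Kif3a (chr11:53567279-53567398, plus strand): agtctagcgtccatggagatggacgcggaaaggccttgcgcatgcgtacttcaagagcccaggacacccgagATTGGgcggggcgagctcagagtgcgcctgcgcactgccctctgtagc
Kif5c (chr2:49619196-49619315, plus strand): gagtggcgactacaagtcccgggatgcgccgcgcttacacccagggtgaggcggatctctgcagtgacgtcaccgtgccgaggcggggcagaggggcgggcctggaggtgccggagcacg

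In Kif11, Kif15 and Kif22 the word ends 12 to 14 bases before the start, and in Kif4, Kif18b, Kif20b and Kif23 it begins 3 to 20 bases into the transcript, where a start is the first base of the RefSeq transcript. Kif20b holds it 2 times in a row. Kif18b has a pair of CCAAT boxes, and Kif11 and Kif22 have 1 each, between 26 and 54 bases before the start, while in Kif4 and Kif23 a CCAAT box lies within the last 7 bases before it. Kif5c holds neither word in the stretch shown. Of the mitotic kinesins, Kif2c and Kif14 hold TTTGAA farther from the start, and Kif18a lacks it. The E2F word TTTGGCGC stood in 2 of the 10, Kif15 and Kif18a, with 0.514% of all windows, and GGGCGG, the box bound by Sp1, in 6 of 10 mitotic and 9 of 11 transport kinesins, with 35.7% of all windows. Both strands were searched. No TTTGAA match overlaps a CCAAT match in the stretches shown, while in Kif3a the CCAAT match shares 2 bases with a GGGCGG match. A match of letters describes the window and is not a measured site.

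At E17.5 the mitotic kinesins leaned towards the mutant, by amounts that did not pass the adjusted threshold for any gene. Both mutant libraries lay above both wild-type libraries in 8 of the 11, where 20.9% of all genes did so, and the 3 exceptions, Kif4, Kif11 and Kif14, overlapped. Without mutant replicate 2, replicate 1 alone lay above both wild-type libraries in 8, and without replicate 1 the number was 11. In limma fits of log2(FPKM + 1) over the 13235 genes that averaged 1 FPKM or more at E17.5, 0 of the 33 kinesins tested had a Benjamini-Hochberg adjusted p under 0.05, as 0.00756% of all genes did. At an unadjusted p under 0.05 there were 2, Kif2c and Kif20b, where 5.7% of all genes were.

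Kif2c differed most relative to its error. Its E17.5 values of 2.69 and 2.75 against 3.42 and 3.61 FPKM gave a mutant minus wild-type difference of 0.28 ± 0.08 (SE) on the log2(FPKM + 1) scale, with an unadjusted limma p of 0.0127 and an adjusted p of 0.689. The groups did not overlap and each replicate sat close to its partner. Kif18a had the largest difference, 0.37 ± 0.16 (SE) with an adjusted limma p of 0.689, from 1.54 and 1.53 against 1.81 and 2.83 FPKM. Its wild-type libraries were within 0.01 FPKM of each other, and mutant replicate 2 was the far point. Without it the difference was 0.15, below the 0.25 of Kif2c, and without mutant replicate 1 it was 0.60. For Kif20b the difference was 0.29 ± 0.11 (SE) with an adjusted limma p of 0.689. It was 0.16 without mutant replicate 2 and 0.41 without replicate 1.

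Over the list, all 10 mitotic kinesins tested at E17.5 had a positive difference, from 0.08 for Kif4 to 0.37 for Kif18a, with a median of 0.21. The corresponding median over all 13235 genes was 0.0028, with 51.0% of genes positive. Without mutant replicate 2 the mitotic median was 0.11, and without mutant replicate 1 it was 0.33. Mutant replicate 2 is also the library with the high telencephalon markers, of which 8 of 8 were higher in the mutant, with a median of 0.64 and none at 0 in any E17.5 library. Neurod6, a marker of cortical projection neurons, was 8.48 and 11.1 against 8.59 and 33.7 FPKM. Hypothalamic markers were lower in the mutant for 9 of 10, with a median of -0.27. Progenitor markers were higher for 3 of 8 and lower for 5, with a median of -0.03. Meningeal and mesenchymal markers were higher for 5 of 6, with sums of 215 and 132 against 238 and 167 FPKM. The part of other tissue in the mitotic values was not tested.

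Transport kinesins showed no such lean at E17.5. Of 15 tested, 8 were higher and 7 lower in the mutant, with a median of 0.02 and a range of -0.12 to 0.11. Kif1c had the largest positive difference, 0.11 ± 0.06 (SE), from 8.38 and 8.26 against 9.23 and 8.82 FPKM. Kif17 had the largest negative one, -0.12 ± 0.09 (SE) with an adjusted limma p of 0.704, from 1.56 and 1.68 against 1.47 and 1.35 FPKM, and Kif13a followed at -0.10 ± 0.06 (SE). Both mutant libraries were above both wild-type libraries in Kif1c and Kif16b. They were below them in Kif3c and Kif13a, where 22.3% of all genes were, and in Kif17 below the level cutoff of that count. Kif9 was the lowest outside the transport group at -0.12 ± 0.12 (SE), and without mutant replicate 1 its difference was 0.0020.

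**Figure D4:**
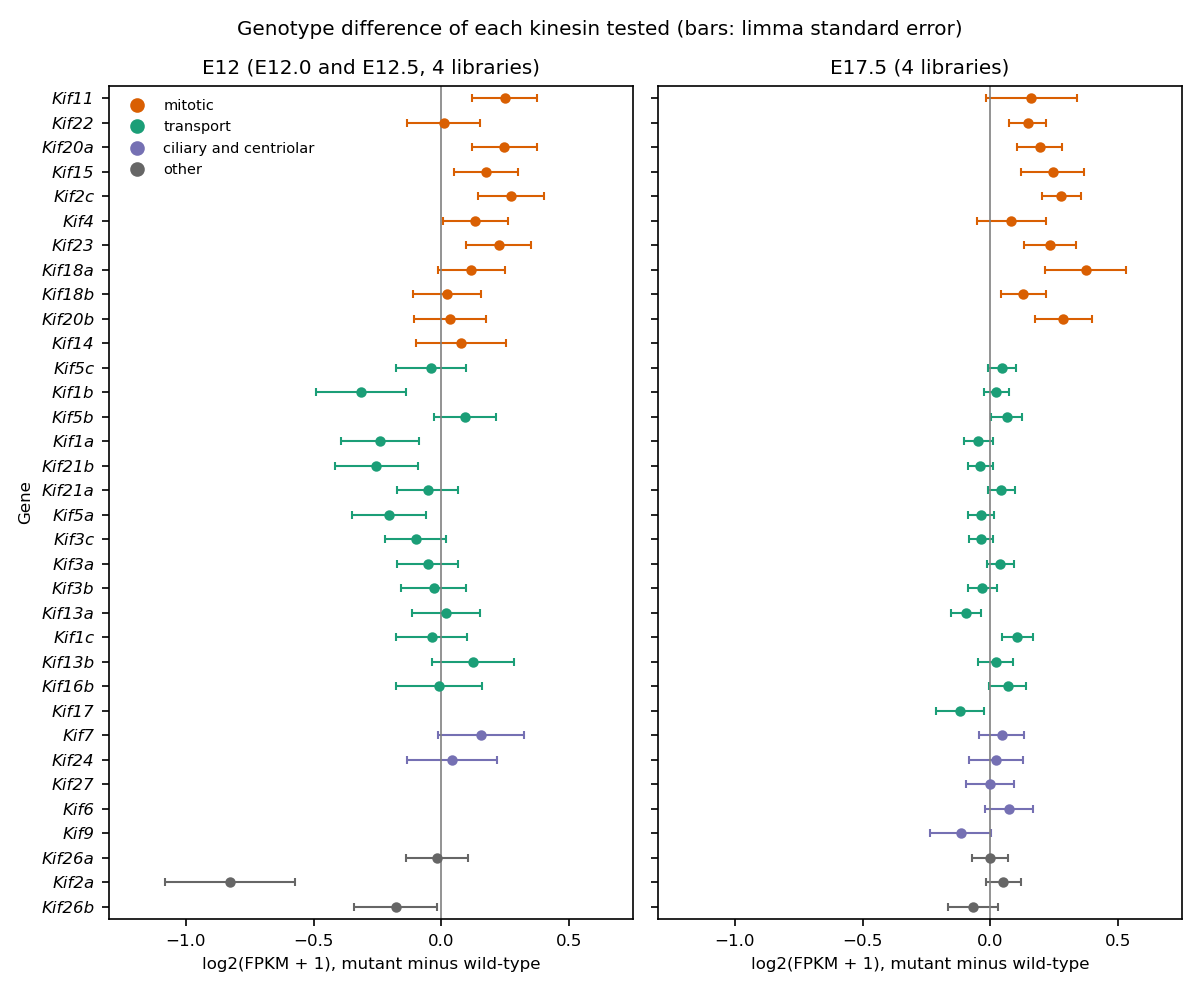
Mutant minus wild-type difference in log2(FPKM + 1) for each kinesin tested at E12 (left, 4 libraries over E12.0 and E12.5) and E17.5 (right, 4 libraries), with bars of 1 limma standard error. Mitotic kinesins lie at or right of 0 in both panels, from 0.01 to 0.27 at E12 and from 0.08 to 0.37 at E17.5, and Kif2a lies farthest left at E12.

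At E12 the mutant was likewise higher in most mitotic kinesins. The mutant library exceeded the wild-type library at both E12.0 and E12.5 in 9 of 11, where 25.2% of all genes did, the exceptions being Kif14 and Kif22, which were higher in the mutant at E12.5 only. At E12.5 alone it was higher in 11 of 11 with a median difference of 0.19, and at E12.0 in 9 of 11 with a median of 0.09. Of all 12519 genes, 6291 were higher at E12.5 with a median of 0.0010, and 6511 at E12.0 with a median of 0.0155. The E12.0 count depends on the scale. With small RNA genes left out it was 6 of 11 with a median of 0.0043, while the E12.5 count stayed at 11. On that scale the values of all genes at E12.0 moved down as well. There 5192 of 12420 genes were higher in the mutant, with a median of -0.055. The part of the wild-type E12.0 library, which stands apart, was not tested.

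The limma fit at E12 had 1 residual degree of freedom with stage as a block. Of 30 kinesins tested, 0 passed an adjusted p under 0.05, as 0.0335% of 11952 genes did, and 1 had an unadjusted p under 0.05, where 1.41% of all genes had. All 11 mitotic kinesins had a positive difference, from 0.01 for Kif22 to 0.27 for Kif2c, with a median of 0.13 against 0.0086 over all genes. Kif2c gave 0.27 ± 0.13 (SE), Kif11 0.25 ± 0.13 (SE) and Kif20a 0.25 ± 0.13 (SE), each with an adjusted limma p of 0.976. For Kif11 the values behind this were 22.7 and 25.1 against 29.1 and 27.98 FPKM, with the wild-type E12.0 library the lowest.

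Kif2a was the 1 kinesin under the unadjusted threshold at E12. It was 34.2 and 23.6 FPKM in the wild-type and 13.0 and 18.6 in the mutant E12.0 and E12.5 libraries, so the mutant had 0.381 times the wild-type level at E12.0 and 0.788 times at E12.5. The fitted difference was -0.83 ± 0.25 (SE), with an unadjusted limma p of 0.0231 and an adjusted p of 0.976. The wild-type E12.0 value was the highest of all 8 libraries, and the mutant E12.0 value the lowest. At E17.5 the genotypes overlapped, with a difference of 0.05 ± 0.07 (SE).

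Transport kinesins leaned the other way at E12. The mutant was lower at both stages in 9 of 14, where 22.4% of all genes were, and Kif5b was higher at both. Their median difference was -0.05, with 3 of 14 positive. The largest were Kif1b at -0.31 ± 0.18 (SE), Kif21b at -0.25 ± 0.16 (SE), Kif1a at -0.24 ± 0.15 (SE) and Kif5a at -0.21 ± 0.14 (SE), with adjusted limma p-values of 0.976. In the order of these 4 genes, the mutant to wild-type ratio at E12.0 was 0.656, 0.701, 0.725 and 0.755 and at E12.5 it was 0.980, 0.994, 0.981 and 0.985. At E12.5 alone 10 of 14 were lower with a median of -0.02, where 6209 of 12519 genes were lower with a median of 0.0010. Without the mutant E12.0 library the group's median was 0.15. That fit has no stage block and sets the mutant E12.5 library against wild-type libraries of both stages. In wild type the transport median rose by 0.27 from E12.0 to E12.5, so the 0.15 mixes stage with genotype. Neuron markers moved with the transport kinesins, with 9 of 10 lower in the mutant and a median of -0.16. Among these Syn1, of synaptic vesicles, was 11.1 and 4.47 against 2.39 and 3.95 FPKM, and Dcx, of young neurons, was 82.9 and 62.7 against 39.8 and 61.0 FPKM. In both the wild-type E12.0 library was the highest of the E12 libraries, and the part of neuron number or of that library was not tested.

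Taking all 8 libraries with stage as a block, the fitted difference is the mean of the E12 and E17.5 differences given above. Its sign is therefore not separate evidence. It was positive for 11 of 11 mitotic kinesins, where 50.7% of all 12519 genes were positive. The mitotic median was 0.20, against 0.0016 over all genes. No gene passed an adjusted p under 0.05 in this limma fit, so the share of all genes was 0.0%. At an unadjusted p under 0.05 there were 4 kinesins, where 5.55% of all genes were, and all were mitotic and higher in the mutant. Kif2c gave 0.27 ± 0.05 (SE) with an unadjusted limma p of 0.00121, and Kif23, Kif20a and Kif15 gave 0.23 ± 0.07 (SE), 0.22 ± 0.06 (SE) and 0.21 ± 0.08 (SE), each with an adjusted p of 0.749. Every mutant library had more Kif2c than every wild-type library of its stage. Without mutant replicate 2 the mitotic median was 0.10. Transport kinesins were higher in 5 of 14, with a median of -0.02.

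Whether the genotype difference itself changed with age was tested as the E17.5 difference minus the E12 difference. In this limma fit 0 of 32 kinesins passed the adjusted threshold, as 0.032% of all genes did, and 1 had an unadjusted p under 0.05, where 3.95% of all genes had. That 1 was Kif2a, at 0.88 ± 0.31 (SE) with an adjusted limma p of 0.749. The mitotic median was 0.0088 and the transport median 0.09. With either E12.5 library left out, E12 is the E12.0 pair alone, and the spread comes from the E17.5 libraries only. Kif2a was then at 1.38 and Kif1b at 0.62. Without either E12.0 library Kif2a was at 0.38 and Kif1b, 0.34 in the full fit, at 0.052.

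The proteins that mitotic kinesins work with, from kinetochore parts to mitotic kinases, ran alongside them. Of 23 such partners, 21 had every E17.5 library at or below 0.5 times every E12 library, where 4.51% of all genes did, and their median stage change was -1.89. The fitted difference was higher in the mutant for 22 of 23 at E17.5 and for 22 of 23 at E12, each with a median of 0.17. Of all genes tested, 51.0% and 52.2% were higher. Both mutant libraries at E17.5 lay above both wild-type libraries in only 11 of the 23 partners, where 20.9% of all genes did so. No partner passed the adjusted threshold. At E17.5 the largest were Mki67, the proliferation antigen, at 0.34, Nuf2, of the kinetochore, at 0.31, and Tpx2, the spindle assembly factor that binds Kif15, at 0.31. Mki67 was 5.87 and 5.68 against 6.29 and 9.12 FPKM, with mutant replicate 2 far above the rest. At E12 they were the kinase Aurka, the checkpoint protein Bub1b and cyclin Ccnb1, at 0.27, 0.27 and 0.26. TTTGAA stood in the start windows of 14 of the 20 partner genes with a window, where 17.9% of all windows hold it.

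Light chains and cargo adaptors of the transport motors ran with them by age, with 14 of 19 higher in every E17.5 library than in every E12 library and a median stage change of 0.67, where 45.4% of all genes were higher with a median of 0.27. In the mutant 14 of 20 were lower at E17.5, with a median of -0.06, and 12 of 20 at E12, also with a median of -0.06. None passed the adjusted threshold. Mapk8ip1 and Mapk8ip2, scaffolds that link cargo to conventional kinesin, were at -0.17 each at E17.5, and Kifc3, a minus-end motor, was at -0.16. At E12 the largest were the light chains Klc3 at 0.33 and Klc2 at -0.25, and Kifc2 at -0.18. Klc3 was 0.56 and 1.99 against 1.65 and 1.77 FPKM, so it was higher in the mutant at E12.0 and lower at E12.5.

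Dynein and dynactin drive transport the other way along the axon. By age, 14 of the 19 genes were higher in every E17.5 library than in every E12 library, where 45.4% of all genes were. Their median stage change was 0.50. Between genotypes they were near even. Of 19 genes, the mutant had the higher level in 11 at E17.5 and in 11 at E12, with medians of 0.0093 and 0.02. Dynll2 had the largest difference of the list at E12, at -0.48 with an adjusted limma p of 0.976. Nde1, a dynein regulator that acts in dividing progenitors, followed the mitotic kinesins. It was 27.7 and 26.1 against 34.4 and 30.3 FPKM at E12 and 8.14 and 7.19 against 8.45 and 9.61 FPKM at E17.5, and its difference over all stages was 0.23 with an unadjusted limma p of 0.00699 and an adjusted p of 0.749. It was the 1 dynein-related gene with every E17.5 library below every E12 library.

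The E17.5 tables give rows per transcript, 55 for the 37 kinesins, which show the isoforms behind the sums. Lengths of the coded proteins are those GENCODE gives for the same RefSeq transcripts. Most Kif1b signal came from the transcript of 1816 residues, the form that carries synaptic vesicle precursors, at 76.2 and 77.4% of the gene in wild type and 75.2 and 73.5% in the mutant. The short form of 1150 residues, which carries mitochondria, took 7.57 and 6.76% against 7.52 and 7.59%. Kif1a was spread over 4 transcripts, of which the one of 1689 residues took 49.9 and 46.2% against 48.1 and 43.6%. For Kif2a the form of 705 residues took 65.1 and 65.9% in wild type. The genotypes overlapped in the leading share of Kif1a and Kif2a, and in Kif1b the mutant libraries lay slightly below the wild-type ones.

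Kif17 had the widest gap between genotypes of the 5 genes plotted. Its transcript of 1038 residues held 82.2 and 78.1% of the gene in wild type and 72.1 and 60.01% in the mutant, and the one of 710 residues held 17.8 and 21.9% against 27.9 and 40.0%. The groups did not overlap. The whole gene was at 1.35 to 1.68 FPKM, so these shares rest on few fragments, and no test was made of them.

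**Figure D5:**
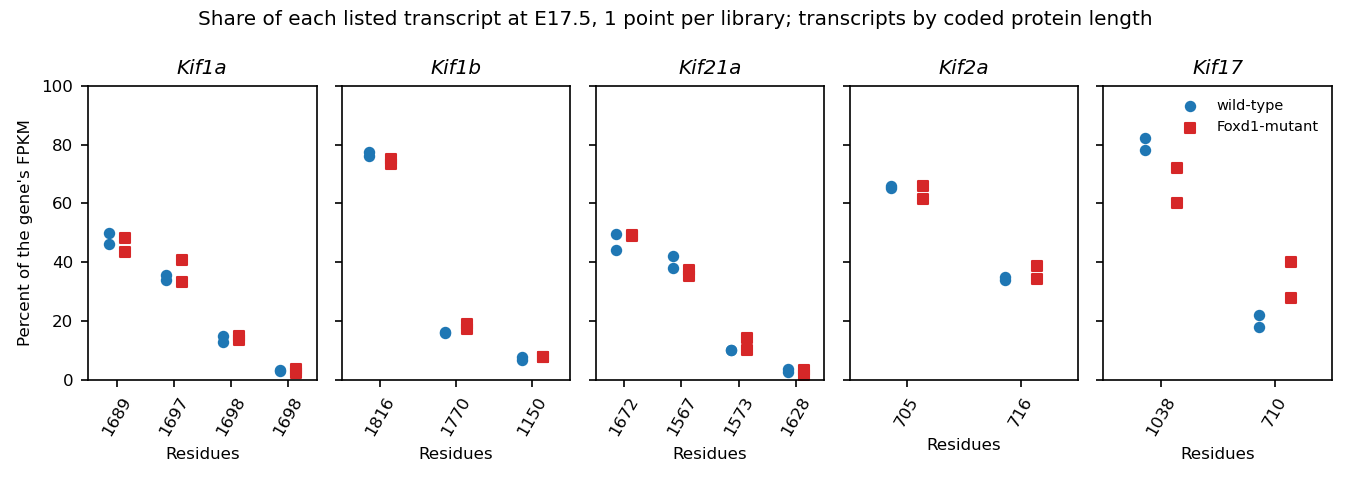
Percent of the gene's FPKM held by each listed transcript at E17.5 (vertical) for 5 kinesins, with transcripts named by the residues they code for (horizontal), 1 point per library, wild type as circles and Foxd1-mutant as squares. Shares of Kif1a, Kif1b, Kif21a and Kif2a lie close together, while the 1038-residue transcript of Kif17 goes from 82.2 and 78.1% to 72.1 and 60.01%.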

How the data were processed

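RNA was sequenced as paired-end reads of 100 cycles, per the labels' protocols. FPKM values were made by the authors with TopHat and Cufflinks on mouse build mm9, per the submitters' processing notes, which give no versions. Per the file headers, the deposited tables hold a row per gene at E12 and a row per transcript at E17.5. Rows were summed by symbol, and 8 E12 rows without a gene name, at most 0.0360% of a library's FPKM, were left out. The sources used here give no depth. The spacing of low values gave an estimate at E17.5, where 79.2 to 80.7% of them came within 0.1 of whole fragments, and none at E12. No count test was run, and precision rests on 2 libraries of each genotype at each age, which at E12 are of different stages.

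Genotypes were compared with limma 3.58.1 in R 4.3.3 (moderated test with a mean trend, two-sided) on log2(FPKM + 1), for genes averaging 1 FPKM over the libraries of a fit, with Benjamini-Hochberg adjustment over all genes and a threshold of 0.05. Fold changes of low genes are understated on this scale. Fits at E17.5, E12, all stages and their difference left 2, 1, 4 and 3 residual degrees of freedom. The fit was tested on simulated data. Stages were described, not tested. Promoters were read from RefSeq windows (GRCm38.p6) as sequence only.

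Members and lists were chosen with earlier results of these data known. Each mitotic and transport kinesin, and other kinesins that pass the adjusted threshold or are among the 3 largest differences in either direction at E17.5 or E12, are given in every library. Genes outside the family are named where they are the 3 largest of a partner list, and Neurod6, Syn1, Dcx, Sox2, Nes and Foxd1 were named after their values were seen. Alternatives covered the pseudocount, filter, scaling, variance model, row choice, blocks and each library left out.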

Additional observations from a re-analysis of the deposited data

How the results depend on the processing

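No kinesin passed the adjusted threshold at E17.5, at E12 or over all stages under any alternative run. The number of all genes past it at E17.5 was 1, and became 0 with no filter or with a filter at 5 FPKM. With the replicate block it became 16. The labels do not say whether replicate numbers pair the E17.5 samples. Same-numbered deviations correlated at -0.026 over genes, which cannot decide this with 2 libraries of each genotype. With libraries left out, the number of genes at E17.5 ran from 1 to 44. At E12 it was 4, and 1 with a pseudocount of 5, no filter, quantile normalization or no trend, 78 without the stage block, and 64 to 80 (70 without the mutant E12.0 library) with a library left out and no stage block. For the difference between ages it was 4, and 1 with a pseudocount of 0.1 or 5, quantile normalization or the replicate block with stage, 0 with no filter or a filter at 5 FPKM, 2 with a robust spread and 48 without both E12.0 libraries. Leaving out single libraries gave 0 to 1465 genes and 0 to 3 kinesins there. The cause of these shifts was not tested.

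The mitotic median stayed positive at E17.5, E12 and over all stages under every alternative run. At E12 it was 0.11 with a pseudocount of 5, 0.092 with small RNA genes left out, and 0.079 to 0.22 with a library left out (0.18 without the mutant E12.5 library). Over all stages it was 0.10 to 0.26, and in the difference between ages -0.084 to 0.13, with libraries left out. The transport median changed sign at E17.5 when the highest row of a symbol was kept (-0.023) and with libraries left out (-0.011 to 0.044). At E12 it ran from -0.32 to 0.15 with a library left out (-0.24 without the wild-type E12.0 library), fits in which stage and genotype are partly mixed. It was 0.16 in the difference between ages with small RNA genes left out. Without either E12.0 library, Kif2a over all stages was -0.075 in place of -0.39 and Kif21b -0.029 in place of -0.15, and in the difference Kif2a was 0.38 and Kif1b 0.052. Without mutant replicate 2 Kif18a was 0.13 over all stages in place of 0.24. Single genes changed sign as follows with libraries left out: Kif9 at E17.5 (-0.23 to 0.0020), Kif21b at E12 (-0.56 to 0.054), Kif1b over all stages (-0.19 to 0.0056, and 0.0056 without both E12.0 libraries) and Kif7 in the difference (-0.29 to 0.072, and 0.072 without both E12.0 libraries).

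For the levels, the log2 stage ratio of the wild-type transport sum was 0.74, and 0.52 with the highest row kept or 0.56 with small RNA genes left out. That of the mitotic sum was -2.26, and -2.44 with small RNA genes left out. Mitotic per 100 transport FPKM at E17.5 was 3.69 in wild type, and 4.25 with the highest row kept or 4.20 with the top member of each group left out. In the mutant it was 4.43, and 5.14 with the highest row kept. The counts of kinesins with libraries left out, or on another scale, were chosen after seeing the data and moved by at most 1.5 times. Depth at E12 is not known, so no detection limit is given for kinesins under 1 FPKM.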

Other observations

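Of the motors that the naming rule leaves out, Kifc1, a minus-end motor of the spindle, was 12.48 and 9.76 against 13.1 and 11.97 FPKM at E12 and 2.05 and 2.24 against 2.30 and 2.496 FPKM at E17.5, wild type before mutant. Cenpe, the kinetochore kinesin, was 12.6 and 8.86 against 13.1 and 11.2 FPKM at E12 and 2.28 and 2.15 against 2.35 and 3.13 FPKM at E17.5. In both genes each mutant library lay above the wild-type libraries of its stage. Kifc2, a minus-end motor found in dendrites, was 2.31 to 4.59 FPKM over the E12 libraries and 18.8 to 21.7 at E17.5, and its mutant minus wild-type difference over all stages was -0.15 with an unadjusted limma p of 0.0428 and an adjusted p of 0.749.

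Dync1i1, an intermediate chain of dynein found mainly in neurons, was 0.448 to 1.85 FPKM over the E12 libraries and 22.1 to 23.96 at E17.5, while Dync1i2, the form that most cells use, was 86.9 to 127 FPKM over the E12 libraries and 138 to 156 at E17.5. These genes were named after their values were seen.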
